A study of Mus musculus with 81 samples.

Results

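The mouse Hox genes are transcription factor genes that lie side by side in 4 clusters on separate chromosomes. The 38 members described here were chosen by name and position, and not by any measured value. HoxA held 10 of them (mm10 chr6:52155000-52265000), HoxB 10 (chr11:96190000-96370000), HoxC 9 (chr15:102915000-103040000) and HoxD 9 (chr2:74665000-74770000). These 38 genes stood among 55536, 20801 and 24500 genes in the 3 count tables, and the 4 cluster windows stood beside 23717 windows of 100 kb elsewhere in the genome. These are the windows with a domain in at least 1 library, since 3489 of 27206 tiled windows had none and were left out of every percentile and share of windows below.

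All libraries came from area CA1 of the hippocampus of young adult male C57BL/6J mice, with 1 mouse behind each RNA library and each ChIP library. Trained mice received contextual fear conditioning, in which a chamber is paired with 3 foot shocks, and untrained mice stayed in their home cage. ChIP-seq for macroH2A1 (mH2A1) covered 2 trained and 3 untrained mice at 30 min after training, 2 and 2 at 1 h, and 5 and 5 at 6 h. ChIP-seq for macroH2A2 (mH2A2) covered 2 trained and 3 untrained mice at 30 min, the same mice as for mH2A1, and 3 and 3 at 1 h. RNA-seq covered 3 experiments: 2 trained (1 h) and 3 untrained intact mice, a depletion experiment with 3 mice each for shH2afy, shH2afy2 and shScr, and a training experiment with 3 trained (1 h) and 3 untrained mice for each of shH2afy and shScr. The shRNAs against H2afy (which encodes mH2A1) or H2afy2 (which encodes mH2A2), and the scramble control shScr, were carried by AAV-DJ vectors injected into dorsal CA1, with the shRNA driven by the U6 promoter and GFP by the CMV promoter. Mice of the depletion experiment were collected 2 weeks later. The infected tissue was dissected as bulk tissue, so all of its cell types entered each library.

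Hox proteins bind DNA through a homeodomain and give cells along the head-to-tail axis their positional identity. The order of the genes along a cluster matches the order in which they are used along the body: the low paralog numbers act in the hindbrain and the high numbers in the trunk, limbs and tail. The forebrain, where the hippocampus lies, forms in front of the region where Hox genes are active, and Polycomb complexes keep the clusters silent there. MacroH2A is a variant of histone H2A with a large extra domain, and it forms long domains over silent chromatin.

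The libraries were checked before the Hox genes were read. Total counts per library ran from 9954415 to 18750763 in the depletion experiment, from 81351559 to 92226421 in the training experiment and from 48769140 to 58655523 in intact mice. In the depletion experiment H2afy had 43.1, 44.9 and 39.2 CPM with shH2afy, against 60.8, 58.2 and 52.7 CPM with shScr, where CPM is the count per 1000000 counts of the TMM-scaled library. This was a log2 difference of -0.37 ± 0.10 (SE, edgeR adjusted p = 0.031), which did not pass the threshold of a 2-fold change with an adjusted p under 0.01. H2afy2 had 13.2, 8.06 and 7.57 CPM with shH2afy2, against 18.3, 18.7 and 18.9 CPM with shScr (edgeR adjusted p = 0.0907), and did not pass either. In the training experiment H2afy was not lower in the libraries labelled shH2afy: it had 99.5, 94.7 and 88.5 CPM in the trained ones, against 86.7, 85.3 and 80.4 CPM in trained shScr libraries. The untrained ones had 87.1, 88.8 and 87.9 CPM, against 82.2, 81.3 and 78.3 CPM in untrained shScr libraries (edgeR adjusted p = 0.0793 trained and 0.0868 untrained). The targeted gene thus goes against the label there, and these 6 libraries are called "labelled shH2afy" below. Among the ChIP libraries, mH2A1 1 h untrained replicate 2 stood apart from the other 3 mH2A1 libraries of its cohort, and the averages, ranges and tests of the 1 h cohort that rest on it are also given without it. Another that stood apart was mH2A2 1 h untrained replicate 1. It had 24.4% of the 4 Hox windows covered, against 31.2 to 57.3% in the rest of its cohort. Its median window was covered to 12.6%, against 4.60 to 7.80%. Values of the mH2A2 1 h cohort below include it unless stated. Both untrained mH2A1 libraries at 1 h carry an antibody tag in the labels that reads macroH2A2. Replicate 2 shared 52.9 to 56.5% of its covered bins with mH2A1 libraries of 1 h and 6 h and 24.4 to 36.2% with the mH2A2 libraries of 1 h.

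Sequences are shown for the promoters and microRNAs that the domain results turn on, as RefSeq gives them on GRCm38.p6 (mm10). The first 3 are 300-base promoters, 250 bases before to 50 after the start, with every CpG in capitals. They were chosen because they run from the middle to the top of the range of CpG content among the members, whose lowest promoters (Hoxa9, Hoxd4 and one of Hoxd11) have 4 CpG: from Hoxb4 (chr11:96318017-96318316, plus strand) with 14 CpG, through Hoxa6 (chr6:52208623-52208922, minus strand) with 26, to Hoxa13 (chr6:52260831-52261130, minus strand) with 45. Hoxb4 marks the neck and posterior hindbrain, Hoxa6 the thoracic region, and Hoxa13, the last gene of HoxA, the limb ends and hindgut.
Hoxb4: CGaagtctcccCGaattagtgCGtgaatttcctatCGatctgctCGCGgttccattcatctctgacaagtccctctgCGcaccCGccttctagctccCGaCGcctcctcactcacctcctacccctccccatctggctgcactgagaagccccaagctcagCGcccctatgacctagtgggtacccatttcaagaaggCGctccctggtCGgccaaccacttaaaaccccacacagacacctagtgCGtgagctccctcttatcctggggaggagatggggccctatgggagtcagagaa
Hoxa6: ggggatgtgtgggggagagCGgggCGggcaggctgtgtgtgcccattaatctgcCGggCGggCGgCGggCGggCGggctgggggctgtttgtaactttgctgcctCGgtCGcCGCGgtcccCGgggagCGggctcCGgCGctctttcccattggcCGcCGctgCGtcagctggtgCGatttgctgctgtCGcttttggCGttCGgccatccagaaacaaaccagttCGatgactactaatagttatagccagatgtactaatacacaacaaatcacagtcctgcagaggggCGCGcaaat
Hoxa13: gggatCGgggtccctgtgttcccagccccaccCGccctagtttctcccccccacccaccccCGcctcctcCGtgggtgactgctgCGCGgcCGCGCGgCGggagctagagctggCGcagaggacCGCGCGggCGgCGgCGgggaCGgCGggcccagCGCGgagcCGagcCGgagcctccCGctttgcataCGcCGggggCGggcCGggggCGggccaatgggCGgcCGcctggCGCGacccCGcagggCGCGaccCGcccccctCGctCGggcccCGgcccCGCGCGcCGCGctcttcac

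The clusters also hold microRNAs, some of which repress messenger RNAs of Hox genes. Their mature sequences are shown with the seed, bases 2 to 8, in capitals, because the seed sets which messages a microRNA can pair with. Mir10a lies on chromosome 11 in HoxB and Mir10b on chromosome 2 in HoxD, Mir196b on chromosome 6 in HoxA, Mir196a-1 in HoxB and Mir196a-2 on chromosome 15 in HoxC, and Mir615 also in HoxC.
Mir10a: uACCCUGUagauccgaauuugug
Mir10b: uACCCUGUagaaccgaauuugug
Mir196a-1 and Mir196a-2: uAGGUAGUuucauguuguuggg
Mir196b: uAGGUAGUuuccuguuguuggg
Mir615: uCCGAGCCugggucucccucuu
The miR-10 pair differs at 1 base of 23 and the miR-196 pair at 1 base of 22, in both cases outside the seed. Among 1679 mature mouse microRNAs, 2 carry the miR-10 seed, 2 the miR-196 seed and 1 the miR-615 seed.

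mH2A1 domains filled most of every Hox cluster at 6 h. A domain is a broad region that the authors' caller found enriched over input, and coverage is the percent of a window that lies inside domains. Over the 10 mH2A1 libraries of 6 h, coverage had a lowest, median and highest value of 90.0, 94.1 and 97.1% for HoxA, of 96.6, 98.6 and 100% for HoxB, of 97.4, 98.3 and 100% for HoxC and of 87.6, 92.0 and 93.9% for HoxD. The mean 100-kb window of the same libraries was covered to between 25.2 and 26.8%. HoxA stood between percentiles 94.9 and 98.1 of all windows of its library, HoxB between 97.9 and 99.6, HoxC between 98.4 and 99.6 and HoxD between 94.6 and 96.7. All 4 clusters were thus in the upper tail, HoxB and HoxC further than HoxA and HoxD.

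**Figure D1:**
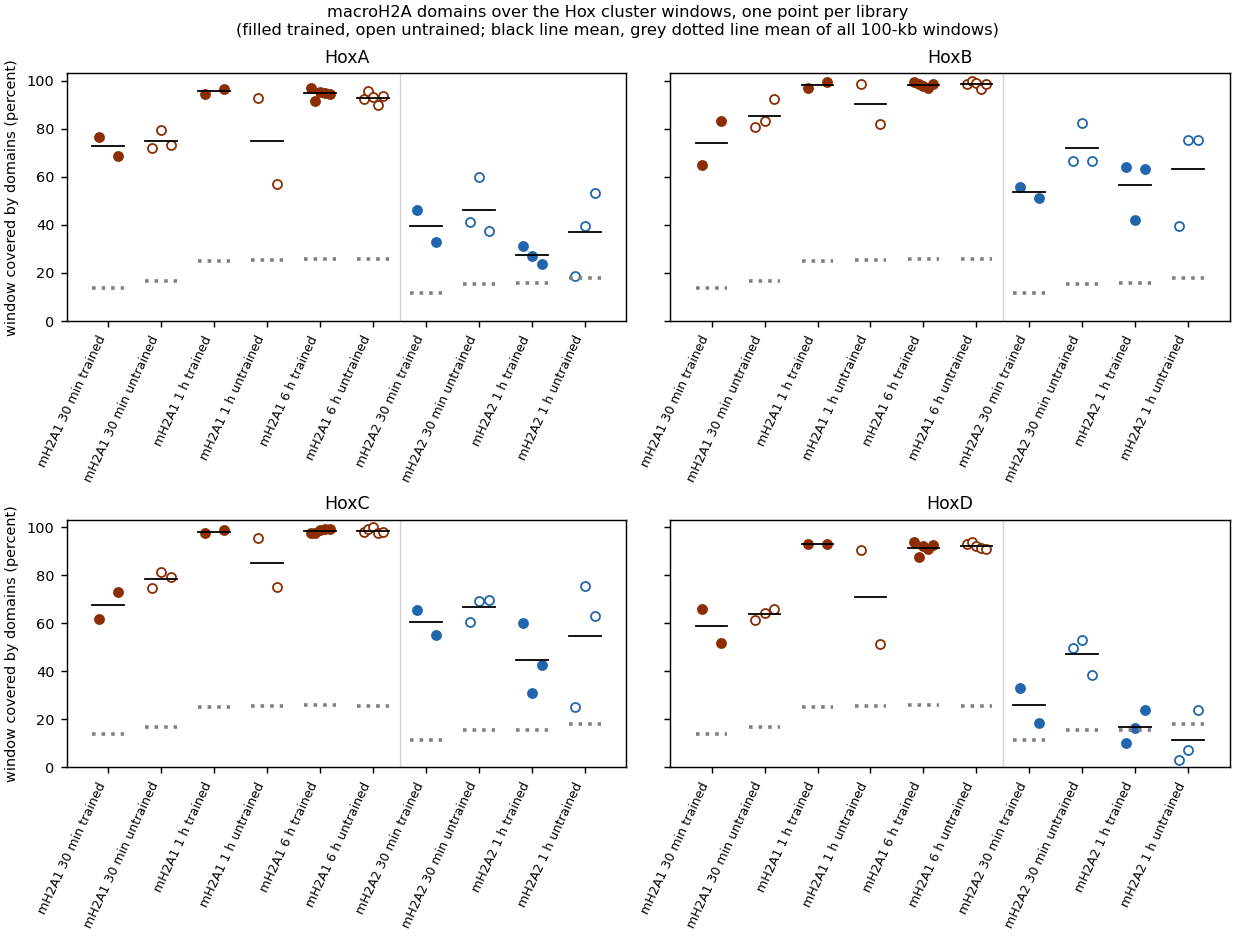
Percent of each Hox window inside a domain (y axis), with one point per ChIP library by antibody and time, trained filled and untrained open, the mean as a black line and the mean over all 100-kb windows as a grey dotted line. The mH2A1 libraries of 6 h lie between 87.6 and 100%, and the mH2A2 libraries of 1 h reach as low as 3.24% over HoxD.

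At 1 h, 3 of the 4 mH2A1 libraries looked like those of 6 h, with 92.9 to 96.7% of HoxA and 90.7 to 92.8% of HoxD covered. The untrained replicate 2 had 57.1% of HoxA, 81.9% of HoxB, 74.9% of HoxC and 51.2% of HoxD covered. At 30 min, mH2A1 coverage over the 5 libraries ran from 68.5 to 79.5% for HoxA, 64.9 to 92.2% for HoxB, 61.9 to 81.4% for HoxC and 51.6 to 66.1% for HoxD. The clusters still stood between percentiles 93.2 and 99.2 of the windows of their library, in which the mean window was covered to between 13.7 and 17.5%. Over the 4 windows together, mean mH2A1 coverage was 73.9% at 30 min, 89.2% at 1 h (96.0% without that replicate) and 96.1% at 6 h. Time, cohort and antibody cannot be told apart here. The study's methods name different mH2A1 antibodies for the 30-min cohort and for the later cohorts.

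mH2A2 domains covered less of the clusters, least of all HoxD. At 30 min the 5 mH2A2 libraries had 32.7 to 60.0% of HoxA, 51.2 to 82.3% of HoxB, 55.2 to 69.8% of HoxC and 18.7 to 53.0% of HoxD covered. At 1 h the trained mice had 10.3, 16.6 and 23.8% of HoxD covered and the untrained mice 3.24, 7.24 and 24.0%. HoxD was then between percentiles 21.8 and 74.7 of the windows of its library, while HoxB was between 85.0 and 95.2. HoxD therefore was an ordinary window for mH2A2 at 1 h, with the mean window covered to between 13.0 and 18.8%. Mean mH2A2 coverage over the 4 windows together was 54.7% at 30 min and 42.4% at 1 h (46.0% without untrained replicate 1).

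At 6 h long domains, with short breaks between them, filled the windows. Over the 10 mH2A1 libraries the number of domains in a window ran from 1 to 8 in HoxB, 1 to 5 in HoxC, 4 to 10 in HoxA and 7 to 14 in HoxD. The longest unbroken stretch inside a window had a median over the 10 mH2A1 libraries of 84.0 kb in HoxB, 73.4 kb in HoxC, 43.9 kb in HoxD and 36.0 kb in HoxA. At 30 min the medians for mH2A1 were 29.6 kb, 17.2 kb, 11.6 kb and 15.0 kb in the same cluster order. In 1 library, 6 h untrained replicate 2, a single domain of 301.0 kb (chr11:96076601-96377600) held the whole HoxB window. In 6 h untrained replicate 3 a domain of 186.8 kb held the whole HoxC window. Of the 200-bp bins of each window, 92.0% in HoxC, 90.7% in HoxB, 82.0% in HoxA and 76.2% in HoxD were inside a domain in every one of the 10 libraries. The longest such stretch of HoxB, 35.0 kb at chr11:96235401-96270400, held Mir196a-1. For mH2A2 at 1 h, 0 of the 525 bins of HoxD were covered in all 6 libraries, and 221 bins (42.1%) were covered in none.

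**Figure D2:**
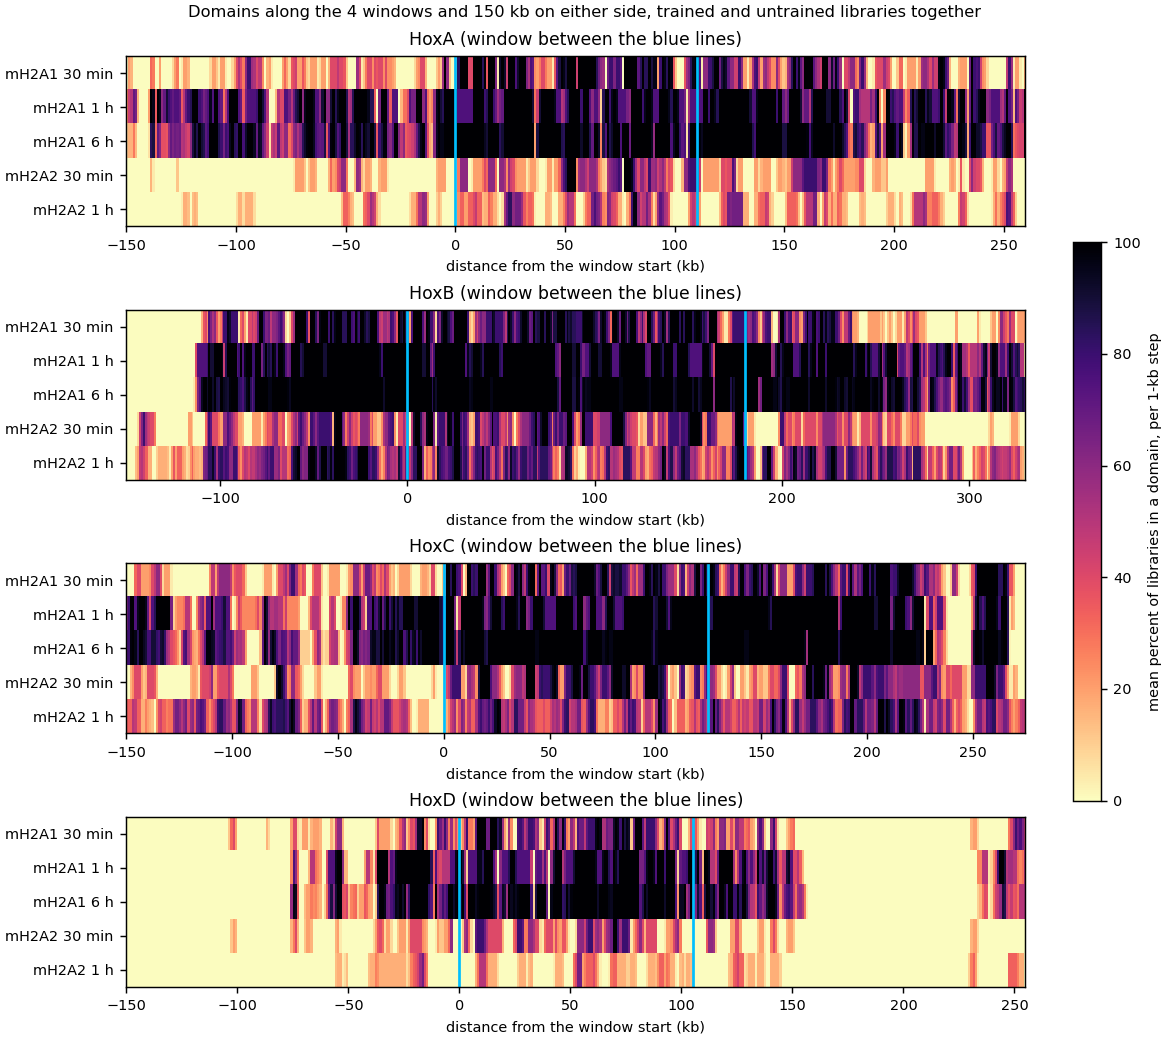
Heat map of domain coverage across each Hox window (between the blue lines) and 150 kb on either side, with the distance from the window start in kb on the x axis, a row for each antibody and time, and the shade giving the mean percent of libraries in a domain per 1-kb step. The row of mH2A1 at 6 h averages 91.8% inside HoxD, against 30.7 and 31.4% on its sides.

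In the later cohorts mH2A1 coverage over 150 kb on either side was lowest around HoxD. For mH2A1 at 6 h, coverage was 91.8% inside HoxD, against 30.7% in the 150 kb before it and 31.4% in the 150 kb after it. Inside HoxA it was 93.8%, against 70.3 and 84.8% on its sides. Inside HoxB it was 98.4%, against 72.9 and 87.3%, and inside HoxC 98.5%, against 64.8 and 82.3%. The nearest 50 kb beside HoxD was covered to 69.7 and 75.8%, above the 30.7 and 31.4% of the full 150 kb. At 6 h the mH2A1 domain with the most bases inside HoxD ended within the window on both sides in every library. In HoxA, HoxB and HoxC such a domain crossed a window edge in some libraries, by up to 113.4 kb before HoxB (untrained replicate 2). Whether other domains crossed the edges was not read. At 30 min the gap around HoxD was shared with the other clusters in part: mH2A1 coverage was 61.9% inside HoxD and 13.4 and 13.3% outside, 73.9% inside HoxA and 18.5 and 46.4% outside, and 74.0% inside HoxC and 23.2 and 67.5% outside. For mH2A2 at 30 min it was 38.6% inside HoxD, against 6.56 and 4.37% outside, and 43.6% inside HoxA, against 6.05 and 22.2% outside. For mH2A2 at 1 h the inside of HoxB (59.9%) and its sides (57.4 and 54.3%) were almost equally covered, and HoxC (49.7%) was less covered than the 150 kb after it (60.4%).

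Most Hox genes started inside an mH2A1 domain. At 6 h the start of 22 of 38 members was in a domain in all 10 mH2A1 libraries, that of 34 in at least 5 of them, and that of 1, Hoxa13, in none. The median library of 6 h had 84.2% of the 38 starts in a domain, against 19.7% of 21900 other protein-coding genes. Other genes with a mean under 1 count in untrained intact CA1 (4230 genes), which share the near absence of RNA, had 31.2%, and other genes with a mean of 100 counts or more (12144 genes) had 8.69%. At 30 min the medians were 86.8% for the members, 20.9% for other protein-coding genes and 27.6% for the near-silent ones. At 1 h they were 73.7, 17.7 and 29.9%, and 76.3, 17.8 and 29.6% without mH2A1 untrained replicate 2. For mH2A2 at 30 min, 65.8% of member starts were in a domain, against 23.3% of other protein-coding genes, and at 1 h 30.3%, against 29.3%. These shares were not tested, since the genes of a cluster share its domains.

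**Figure D3:**
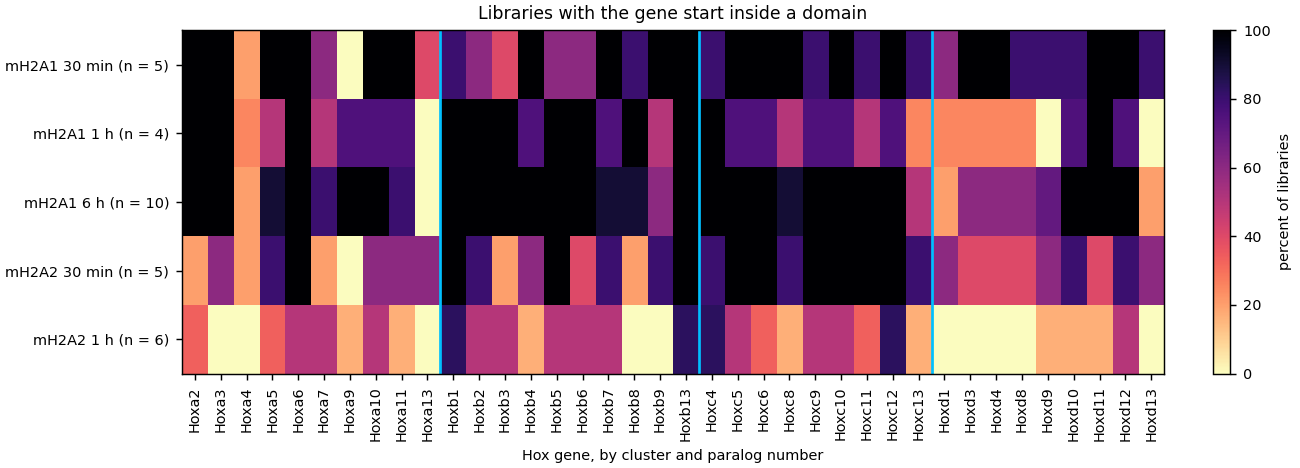
Percent of libraries in which the start of each member (columns, by cluster and paralog number, with blue lines between clusters) lay inside a domain (shade), by antibody and time (rows). Hoxa13 is at 0 of 10 mH2A1 libraries of 6 h while 22 members are at 10 of 10.

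The members differed among themselves, and the ones with uncovered starts were few. The start of Hoxa13 was in a domain in 0 of 10 mH2A1 libraries at 6 h, 0 of 4 at 1 h and 2 of 5 at 30 min. Hoxd13, the last HoxD gene, which shapes the digits, was in a domain in 2 of 10, 0 of 4 and 4 of 5 libraries. Hoxd1, at the other end of HoxD, was in 2 of 10, 1 of 4 and 3 of 5. Hoxa4 was in 2 of 10 at 6 h, and these 4 genes were the only members under 5 of 10 libraries there. Hoxa9, a trunk gene, had its annotated start in a domain in 10 of 10 libraries at 6 h, 3 of 4 at 1 h and 0 of 5 at 30 min. This depends on the start used, since the RefSeq promoter of Hoxa9 was covered to 60.0% on average at 30 min and to 100% at 1 h and 6 h. In the 1 h counts, untrained replicate 2 is the library without a domain at Hoxa9 and at Hoxb4. Hoxb4 was in a domain in 10 of 10, 3 of 4 and 5 of 5 libraries, and Hoxb3, its neighbour, which patterns the hindbrain, in 10 of 10, 4 of 4 and 2 of 5.

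For mH2A2 the median number of starts in a domain was lower in the 1 h cohort than in the 30-min cohort in each cluster, at 4.5 and 9 of 9 in HoxC, 4.5 and 7 of 10 in HoxB, 2 and 4 of 10 in HoxA and 0.5 and 5 of 9 in HoxD. This difference was not tested. Hoxb13 and Hoxc12, posterior genes of their clusters, and Hoxb1, which specifies hindbrain segments, each started in a domain in 5 of 5 libraries at 30 min and 5 of 6 at 1 h. Hoxd1, Hoxd3, Hoxd4, Hoxd8 and Hoxd13 started in a domain in 2 or 3 of 5 libraries at 30 min and 0 of 6 at 1 h, although the RefSeq promoter of Hoxd4 was covered to 33.3% on average at 1 h. In all, 10 members started in a domain in every mH2A2 library of 30 min and 0 in every library of 1 h, while 10 did so in none of the 1 h libraries. The 1 h library with the fewest had 4 of 38 starts in a domain, so 1 library limits the count over every library. Of the microRNAs, Mir10a, Mir10b, Mir196a-1 and Mir196a-2 lay in an mH2A1 domain in 10 of 10 libraries at 6 h, Mir615 in 8 and Mir196b in 7. Mir10a, which lies just before Hoxb4, was in 1 of 5 mH2A1 libraries at 30 min and in 0 of 5 and 1 of 6 mH2A2 libraries at 30 min and 1 h.

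Other gene lists were read in the same way. The Dlx and Irx genes, other developmental homeobox genes that Polycomb keeps silent, had a median of 54.2% of 12 starts in an mH2A1 domain at 6 h and 75.0% at 30 min. The 16 noncoding RNA genes inside the clusters had 93.8 and 81.3%. The 9 genes that flank the clusters had 27.8 and 22.2%. The TALE cofactors (9 Pbx, Meis and Pknox genes, whose proteins bind DNA together with Hox proteins) had 0 and 11.1%, and the 12 genes of the Polycomb complex PRC2 had 0 and 0%. Marker lists of cell types other than CA1 neurons had shares above those of all protein-coding genes at 6 h: 66.7% for 6 choroid plexus genes, 66.7% for 6 endothelial genes, 64.7% for 17 leukocyte genes and 58.3% for 6 microglia genes. The 9 retinoic acid genes had 55.6%, and the 8 CA1 neuron genes 18.8%. At 30 min this order was kept only in part. The CA1 neuron genes then had 37.5%, against 20.9% of other protein-coding genes. The microglia genes were lower than the CA1 neuron genes, at 33.3%, as were the oligodendrocyte genes, at 16.7%. The leukocyte genes were higher, at 52.9%, as were the endothelial genes, at 66.7%, and the choroid plexus genes.

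Within the clusters, CpG-rich bins had lower coverage than CpG-free bins in the later cohorts and higher coverage in the 30-min cohort. At 6 h, 83.0% of the 387 Hox bins with 10 or more CpG lay in an mH2A1 domain, against 98.9% of the 363 bins with none. At 1 h the values were 69.5 and 97.4%, and 80.9 and 99.6% without mH2A1 untrained replicate 2. At 30 min they were 86.7 and 67.1%, and thus in the other order. For mH2A2 the dense bins had 67.4% and the bins with none 45.5% at 30 min, and 31.6 and 47.1% at 1 h. Within the Hox windows the difference of dense minus CpG-free bins was negative in all 20 libraries of 1 h and 6 h, from -55.2 to -9.72 percentage points (from -26.2 without that replicate), and positive in all 10 libraries of 30 min, from 13.5 to 27.8.

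**Figure D4:**
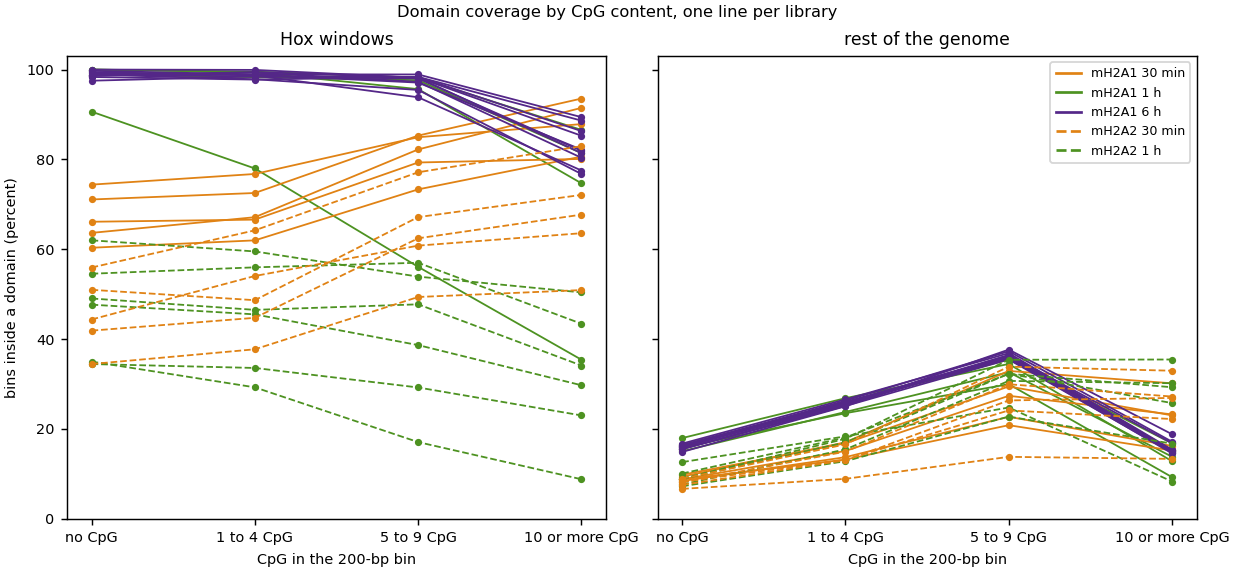
Percent of 200-bp bins inside a domain (y axis) by number of CpG in the bin (x axis), one line per library, mH2A1 solid and mH2A2 dashed, in the Hox windows and in the rest of the genome (panels). In the Hox windows all 20 lines of 1 h and 6 h end lower at 10 or more CpG than at none and all 10 lines of 30 min end higher.

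Outside the Hox windows the same difference was negative in 11 and positive in 9 of the 20 libraries of 1 h and 6 h, from -6.59 to 26.5 percentage points. Without mH2A1 1 h untrained replicate 2 it was negative in 10 of 19, from -5.16. In all 10 libraries of 30 min it was positive, from 6.44 to 24.0. The mH2A2 libraries of 1 h differed from the genome in sign: the difference was negative in 6 of 6 within the Hox windows (median -13.3) and positive in 5 of 6 outside them (median 18.1). The study's methods state that mH2A2 was precipitated with the same antibody at both times. Cohort and time cannot be told apart in this pattern. The 12 Hox bins that were in no mH2A1 library of 6 h had a mean of 30.0 CpG and 76.7% GC, against 4.79 CpG and 49.1% GC over all 2600 Hox bins. They formed 3 stretches: 0.8 kb over the start of Hoxa13 (chr6:52260201-52261000), 1.0 kb within Hoxd8 (chr2:74704801-74705800) and 0.6 kb within Hoxd9 (chr2:74698201-74698800). In contrast, the 146 Hox bins in no mH2A1 library of 30 min had a mean of 1.83 CpG and 37.9% GC.

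Of the promoters shown above, Hoxa13 was the one with low coverage at 6 h. RefSeq promoters matched 22 of the 38 members, with 24 promoters and a median of 14.5 CpG, against 7 over all 32851 promoters. At 6 h the Hoxb4 promoter (14 CpG) was covered to 100% on average over the 10 mH2A1 libraries, the Hoxa6 promoter (26 CpG) to 100% and the Hoxa13 promoter (45 CpG) to 5.00%. At 30 min they had 100, 100 and 40.0%. Hoxa6 was thus fully covered at both times despite its CpG content. By class, the mean mH2A1 coverage at 6 h was 97.6% for the 7 Hox promoters under 10 CpG, 95.8% for 6 with 10 to 19, 79.4% for 9 with 20 to 29 and 14.2% for 2 with 30 or more. Other promoters of the same classes had 42.0, 19.8, 6.66 and 2.78%. The motif TGATTNAT, at which Pbx and Hox proteins bind as a pair, was found on either strand in 2 of the 24 Hox promoters (8.33%), against 3.22% of all promoters. The homeodomain core TAATTA, which shares no whole match with TGATTNAT, was found, also on either strand, in 2 (8.33%), against 5.29%. Both promoters with TAATTA belong to Hoxd11. The promoters with TGATTNAT were that of Hoxa2 and the Hoxd11 promoter with 25 CpG.

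Between trained and untrained mice no cluster was called. With limma on all 23721 windows, 0 of the 4 Hox windows and 0% of all windows passed an adjusted p under 0.05 in any of the 5 comparisons of trained with untrained mice. At an unadjusted p under 0.05 there were 2420 windows for mH2A1 at 30 min, 1241 at 1 h and 1261 at 6 h, and 1732 and 528 for mH2A2 at 30 min and 1 h, with 1 Hox window among them (HoxD for mH2A2 at 30 min). At 6 h, the comparison with most mice, HoxA coverage was 97.1, 91.5, 95.5, 94.9 and 94.5% in trained mice and 92.5, 95.6, 93.1, 90.0 and 93.6% in untrained mice. The groups overlapped, with a difference of 1.71 ± 1.26 percentage points (SE, limma adjusted p = 0.967, exact permutation p = 0.230). HoxB differed by -0.18 ± 0.71 points, HoxC by 0.06 ± 0.65 and HoxD by -0.91 ± 1.15, each with a limma adjusted p of 1 and overlapping groups. Groups did not overlap in 0.662% of all windows at 6 h.

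At 30 min mH2A1 coverage of HoxC was 61.9 and 73.0% in trained mice and 74.6, 81.4 and 79.4% in untrained mice. The groups did not overlap, as was the case for 23.6% of all windows (16.4% with trained lower), and the difference was -11.0 ± 4.78 points (limma adjusted p = 0.553, exact two-sided permutation p = 0.1, the smallest this design allows). HoxA differed by -2.15 ± 4.36 points, HoxB by -11.3 ± 7.40 and HoxD by -5.14 ± 5.28, with overlapping groups. mH2A2 coverage of HoxD in the same mice was 33.0 and 18.7% in trained mice and 49.7, 53.0 and 38.5% in untrained mice, without overlap. Its difference was -21.2 ± 7.38 points (limma adjusted p = 0.671, exact permutation p = 0.2). HoxB had 55.8 and 51.2% in trained mice and 66.6, 82.3 and 66.6% in untrained mice, also without overlap, a difference of -18.3 ± 7.41 points (limma adjusted p = 0.688, exact permutation p = 0.1). Groups did not overlap in 18.9% of all windows for mH2A2 at 30 min, and in 12.2% trained mice were lower.

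At 1 h mH2A1 coverage of HoxD was 92.8 and 92.8% in trained mice and 90.7 and 51.2% in untrained mice. The low value is that of the untrained replicate 2. HoxA, HoxC and HoxD did not overlap between the groups, against 27.6% of all windows (10.6% with trained higher), with differences of 20.5 ± 15.1, 13.0 ± 8.83 and 21.8 ± 16.6 points (limma adjusted p = 0.879 each, exact permutation p = 0.333, the smallest that 2 against 2 allows). Without that replicate the differences were 2.64 points for HoxA, -0.28 for HoxB, 2.80 for HoxC and 2.10 for HoxD. For mH2A2 at 1 h all 4 clusters overlapped between trained and untrained mice, in a comparison where 5.08% of all windows did not. The differences were -9.70 points for HoxA, -6.96 for HoxB, -10.1 for HoxC and 5.40 for HoxD (limma adjusted p = 1 each).

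mH2A1 covered more of the clusters than mH2A2 in the untrained mice, but the difference was not called. The 3 untrained mice of 30 min were measured with both antibodies. HoxA was covered to 71.8, 79.5 and 73.1% by mH2A1 and to 41.3, 60.0 and 37.6% by mH2A2, a difference of 28.5 ± 6.85 points (limma adjusted p = 0.165, exact permutation p = 0.1, the smallest possible, both without pairing). HoxC (11.8 ± 4.12 points) and HoxD (17.0 ± 4.64) were also higher for mH2A1 without overlap, and HoxB (13.5 ± 6.20) overlapped. Within mice, mH2A1 was higher in 12 of 12 differences over the 4 clusters, which share mice and libraries, from 0.778 points in HoxB of mouse 2 to 35.5 points in HoxA of mouse 3. With the mouse as a block, limma gave adjusted p = 0.259 for HoxA, 0.387 for HoxB, 0.284 for HoxC and 0.299 for HoxD. Of all windows, 20% did not overlap, with 13.3% higher for mH2A1. At 1 h, 2 mH2A1 libraries stood against 3 mH2A2 libraries, and HoxD was covered to 90.7 and 51.2% by mH2A1 and to 3.24, 7.24 and 24.0% by mH2A2. This was the widest gap of the 4 clusters, at 59.5 ± 14.7 points (limma adjusted p = 0.0821). HoxA, HoxB and HoxD did not overlap at 1 h, but neither did 47.5% of all windows (37.4% with mH2A1 higher). The limma counts at an unadjusted p under 0.05 were 3812 windows at 30 min, 3 of them Hox, and 7650 at 1 h, 1 of them Hox, and 0% were called at either time. Without the mH2A1 untrained replicate 2 the 1 h difference was 79.2 points for HoxD (limma adjusted p = 0.0748), 55.8 for HoxA (37.8 with it) and 35.1 for HoxB (26.8 with it). How the antibodies compare in efficiency is not known.

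Hox RNA was almost absent from intact CA1. In the 5 libraries of intact mice, 29 of the 38 members were at 0 counts throughout and 36 never exceeded 3 counts. All 38 members together took 17 and 14 counts in trained mice and 10, 12 and 12 counts in untrained mice, of the library totals given above. Hoxd1, which is active in sensory neurons of the body, led with 6 and 6 counts in trained mice and 6, 4 and 6 in untrained mice. Hoxb5, Hoxb4 and Hoxa7 did not exceed 4 counts in any of the 5 libraries. HoxC was at 0 in all 5 libraries. These values sit near the floor of 3 counts, so no order among the genes can be read. 0 members had enough counts to be tested with edgeR, where 0.0959% of 15641 genes passed an adjusted p under 0.01 between trained and untrained mice. The strand of the counting is not given in the sources used here, and several members overlap in the annotation (the span of Hoxa3 covers Hoxa4, Hoxa5 and Hoxa6, that of Hoxc5 covers Hoxc6, Hoxc8, Hoxc9 and Hoxc10, and Hoxd3 overlaps Hoxd4), so reads there cannot be assigned with certainty.

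The depletion experiment gave a few Hox reads, spread unevenly over its libraries. The 38 members summed to 35, 53 and 51 counts with shH2afy, 12, 10 and 18 with shH2afy2 and 12, 8 and 74 with shScr. The shScr replicate 3, with 7.87 CPM, lay above every shH2afy library (2.35, 3.04 and 3.52 CPM), and the other shScr libraries had 0.83 and 0.50 CPM. Its 74 counts were spread over HoxA (15), HoxB (18), HoxC (24) and HoxD (17). The same library had the highest level of olfactory receptor RNA, another silent family, with 166 CPM against 21.5 and 15.6 CPM in the other shScr libraries. Without shScr replicate 3, the shH2afy libraries exceeded the shScr libraries in summed counts, and with it the groups overlapped.

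Hoxb4 and Hoxb9 had the highest summed counts with shH2afy. Hoxb4 had 19, 19 and 3 counts with shH2afy, 0, 3 and 1 with shH2afy2 and 2, 0 and 4 with shScr. The sums of 41 and 6 for shH2afy and shScr have a ratio of 6.80 after scaling to the library totals (95% counting interval 2.87 to 19.6), but replicate 3 of shH2afy lay within the shScr range. Hoxb9, a trunk gene, had 7, 0 and 8 counts with shH2afy, 0, 0 and 1 with shH2afy2 and 0, 0 and 0 with shScr. With shScr set to the floor of 3 counts over the group, Hoxb9 was 4.97-fold higher with shH2afy than with shScr. The 95% counting interval of the observed counts began at 3.57-fold. Hoxb3 had 0, 1 and 7 counts with shH2afy, 0, 0 and 1 with shH2afy2 and 0, 0 and 6 with shScr. Hoxc13, a gene of hair and nails, had 1, 5 and 8 counts with shH2afy, 3, 2 and 2 with shH2afy2 and 2, 0 and 2 with shScr. Hoxa7, Hoxd1, Hoxc10, Hoxd9, Hoxc6 and Hoxb1 did not exceed 7 counts in any library.

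None of the 38 members passed the filter on low counts in any of the 3 comparisons of the depletion experiment, so none was tested there. With edgeR, 11.7% of 16179 genes passed for shH2afy against shScr (10.5% as higher), 0% of 15609 for shH2afy2 against shScr (3238 genes at an unadjusted p under 0.05, 127 by DESeq2) and 9.56% of 16294 for shH2afy against shH2afy2 (7.96% as higher). The read counts of the groups did not overlap for 0 members in either comparison with shScr, against 15.7% and 9.29% of genes with a count. Without the filter, edgeR called 1 member between shH2afy and shH2afy2: Hoxb4 was higher with shH2afy by 3.29 ± 0.75 on the log2 scale (adjusted p = 8.67e-04, against 7.18% of genes called, 5.8% as higher). Against shScr, Hoxb4 differed by 2.40 ± 0.74 and Hoxb9 by 5.33 ± 1.73 without the filter (edgeR adjusted p = 0.0137 and 0.0196), which did not pass. Marker lists of cell types also differed between these libraries. The 17 leukocyte genes summed to 1276, 1871 and 270 CPM with shH2afy. They summed to 31.7, 312 and 40.4 CPM with shH2afy2 and 33.0, 13.2 and 42.2 CPM with shScr. The microglia list summed to 1731, 1790 and 1182 CPM with shH2afy, 347, 596 and 354 CPM with shH2afy2 and 379, 251 and 298 CPM with shScr, and the CA1 neuron list to 1972, 2088 and 3790 CPM with shH2afy, 5911, 4318 and 5280 CPM with shH2afy2 and 6944, 5249 and 4627 CPM with shScr. For shH2afy against shScr 6 of 9 leukocyte and 6 of 6 microglia genes tested were called as higher and 2 of 8 CA1 neuron genes as lower. Igkc, an antibody light chain of B cells, had 443, 643 and 0.207 CPM with shH2afy, against 0, 0.125 and 0.106 CPM with shScr, and was thus high in the same 2 libraries as Hoxb4. Other Hox counts did not keep this order, and HoxC had 4, 14 and 15 counts in shH2afy replicates 1, 2 and 3. The shScr replicate 3, with the highest Hox sum, had a leukocyte sum of 42.2 CPM. The part of these markers in the Hox counts was not tested.

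Hoxb3 and Hoxb4 were higher in the libraries labelled shH2afy of the training experiment, in which H2afy itself was not lower. This experiment was prepared by ribosomal RNA depletion and counted over whole transcripts, so its levels are not on the scale of the other tables. Hoxb3 (ENSMUSG00000048763, chr11:96323326-96347930, plus strand) had 63, 102 and 98 counts in untrained libraries labelled shH2afy, against 6, 5 and 8 in untrained shScr libraries. After training it had 101, 116 and 52 counts, against 9, 20 and 6 with shScr. Hoxb4 (ENSMUSG00000038692, chr11:96318267-96321638, plus strand) had 25, 50 and 66 counts in untrained libraries labelled shH2afy, against 5, 3 and 8 with shScr, and after training 66, 53 and 39, against 8, 9 and 5. In both genes every library labelled shH2afy lay above every shScr library. The span of Hoxb3 overlaps the gene Hoxb3os, and the strand of the counting is not given, so the Hoxb3 reads cannot be assigned with certainty.

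**Figure D5:**
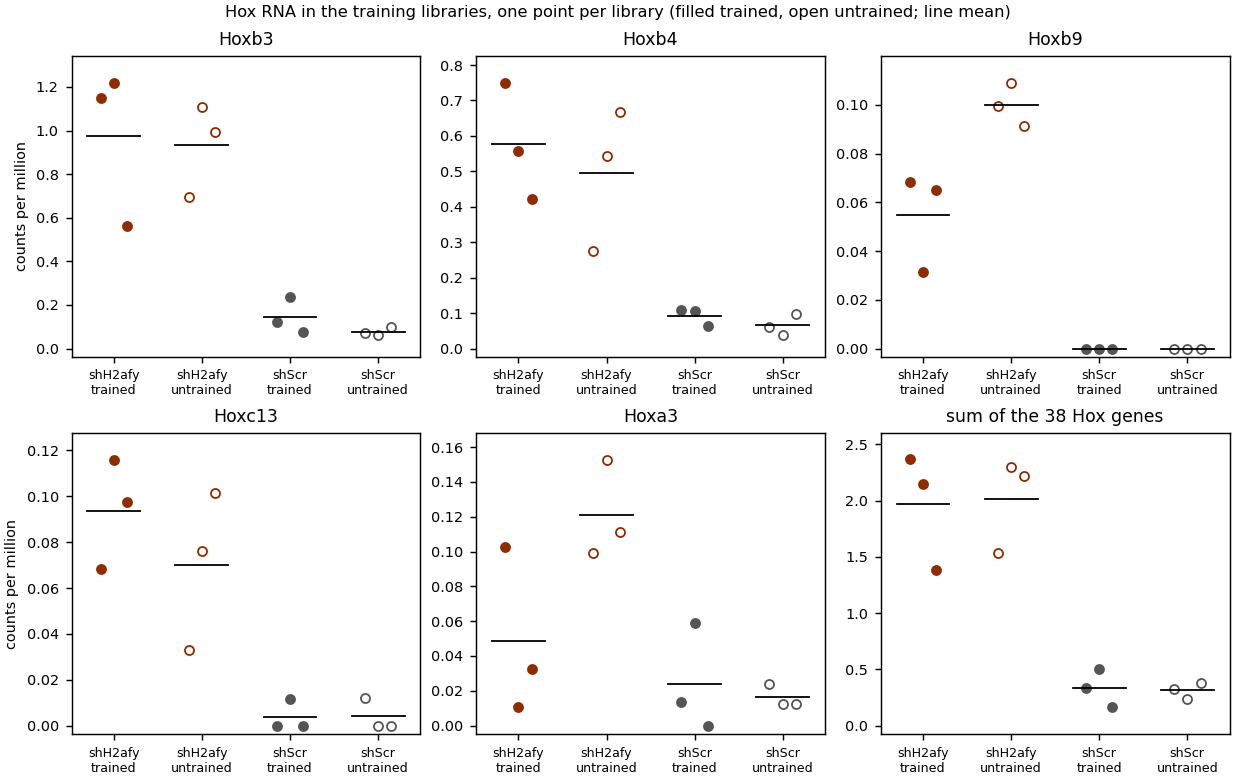
Level (CPM) of selected Hox genes and of the sum of all 38 members (y axis) in each library of the training experiment, labelled shH2afy left of shScr, trained filled and untrained open, with the group mean as a line. Hoxb3 lies between 0.563 and 1.22 CPM in the 6 libraries labelled shH2afy and between 0.063 and 0.236 CPM in the 6 shScr libraries.

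In edgeR 2 of the 38 members could be tested, and both were called as higher in untrained and in trained mice, where a call needs a change of over 1.2-fold with an adjusted p under 0.05. They had enough counts for the filter through the libraries labelled shH2afy, in which they are high, while 0 members could be tested within shScr, so that 2 of 2 is no result about the members as a group. Hoxb3 was higher by 3.56 ± 0.31 on the log2 scale in untrained mice (fold 11.8, adjusted p = 1.9e-04) and by 2.73 ± 0.49 in trained mice (fold 6.65, adjusted p = 0.00581). Hoxb4 was higher by 2.90 ± 0.48 in untrained mice (fold 7.46, edgeR adjusted p = 0.00245) and by 2.62 ± 0.35 in trained mice (fold 6.16, adjusted p = 0.00234). Of all genes tested, 43.7% were called in untrained mice, 25.2% as higher, and 41.3% in trained mice, 22.8% as higher. The effect of training on the virus difference was not called for either gene (interaction -0.82 ± 0.63 for Hoxb3 and -0.27 ± 0.63 for Hoxb4, edgeR adjusted p = 0.9998 each, with 0% of 15997 genes called, 333 at an unadjusted p under 0.05 and 0 by DESeq2). Hoxb3 and Hoxb4 are neighbours in HoxB and were read in the same libraries.

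Other members followed at lower counts. Hoxb9 had 9, 10 and 9 counts in untrained and 6, 3 and 6 in trained libraries labelled shH2afy, and 0 in all 6 shScr libraries. With shScr set to the floor of 3 counts over the group, Hoxb9 was 9.67-fold higher in untrained and 5.16-fold higher in trained mice. The counting interval of the observed counts began at 7.36-fold in untrained and 3.70-fold in trained mice. Hoxa3, a gene of the pharyngeal arches, had 9, 14 and 11 counts in untrained libraries labelled shH2afy, against 2, 1 and 1 in untrained shScr libraries. In trained mice it had 9, 1 and 3 counts with the label shH2afy, against 1, 5 and 0 with shScr, and the groups overlapped. Hoxc13 had 3, 7 and 10 counts in untrained and 6, 11 and 9 in trained libraries labelled shH2afy, against 1, 0 and 0 in untrained and 0, 1 and 0 in trained shScr libraries. Hoxc6, a thoracic gene, had 6, 9 and 6 counts in untrained and 9, 4 and 2 in trained libraries labelled shH2afy, against 1, 0 and 0 in untrained and 0, 1 and 0 in trained shScr libraries. Neither gene overlapped between the viruses in either state. Hoxc5 and Hoxc4, cervical genes, did not exceed 7 counts, and Hoxa7 and Hoxd1 did not exceed 5 and overlapped between the groups.

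In read counts, 8 members did not overlap between the groups in untrained mice (Hoxa3, Hoxb3, Hoxb4, Hoxb9, Hoxc5, Hoxc6, Hoxc13 and Hoxd8) and 7 in trained mice (Hoxb3, Hoxb4, Hoxb9, Hoxc4, Hoxc5, Hoxc6 and Hoxc13), all higher in the libraries labelled shH2afy. Of all genes with a count, 51.4% in untrained and 49% in trained mice did not overlap, and 40.1% and 38.8% did so as higher. These were 8 of 25 members with a count in untrained and 7 of 17 in trained mice, shares near or below those of all genes. Without the filter edgeR called 7 members in untrained mice (38.1% of all genes, 21.8% as higher) and 5 in trained mice (35.3%, 19.5% as higher). DESeq2 called 6 members in untrained mice (39.7%, 22.1% as higher) and 3 in trained mice (37.4%, 20.6% as higher). HoxB took most of the reads: 97, 165 and 174 counts in untrained libraries labelled shH2afy, against 16, 11 and 18 with shScr, and 173, 172 and 97 after training, against 17, 32 and 12. All 38 members summed to 139, 211 and 219 counts in untrained libraries labelled shH2afy, against 27, 19 and 31 with shScr, and after training to 208, 204 and 128 counts, against 25, 43 and 13 with shScr. In total 13 members were at 0 in all 12 libraries. Olfactory receptor RNA, in contrast to the depletion experiment, kept to 10.8 to 16.9 CPM in all 12.

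Cell-type markers moved with the same libraries. In these bulk samples, fewer cells of a type and less RNA per cell cannot be told apart. The leukocyte list summed to 364 to 717 CPM in the 6 libraries labelled shH2afy, against 58.0 to 229 CPM in the 6 shScr libraries, and the microglia list to 684 to 997 CPM, against 201 to 313 CPM. The CA1 neuron list summed to 1441 to 1922 CPM, against 3450 to 4025 CPM. Of the leukocyte genes tested, 9 of 14 were higher in untrained and 7 of 14 in trained mice, of 6 microglia genes all 6 in both, and of 6 endothelial genes 4 in both, against 25.2% and 22.8% of all genes. Of 8 CA1 neuron genes 6 were lower in both, and of 8 genes of mural cells, fibroblasts and meninges 5 were higher in untrained and 6 in trained mice. Within shScr, trained replicate 2 had both the highest Hox sum (43 counts) and the highest leukocyte sum (229 CPM). In intact mice the leukocyte list summed to 25.7 to 33.5 CPM in trained and 23.7 to 31.0 CPM in untrained mice. The part of these cells in the Hox reads was not tested.

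Lists of genes that act on Hox clusters in the embryo had calls at shares to be read against the 43.7% of all genes called in untrained and 41.3% in trained mice. Of the Hox activators, 12 of 15 were tested, and 4 were higher in untrained mice, among them the retinoid receptors Rxra (log2 1.01), Rxrg (1.52) and Rarg (0.55). In trained mice 4 were higher, among them Rxra by 0.89, Rxrg by 2.12 and Rarg by 0.73, and 2 were lower, Egr2 by -1.77 and Rara by -0.33. Egr2, the hindbrain regulator also known as Krox20, and Rara are named after their values were seen. Of the retinoic acid genes, 3 of 7 tested were higher in untrained mice, among them Crabp2 (1.24), which carries retinoic acid in the cell, and Aldh1a1 (0.54), which makes it. In trained mice 4 were higher (among them Aldh1a1, Crabp2 and Aldh1a2) and 1 lower (Cyp26b1, which breaks retinoic acid down, by -0.74). These values are edgeR log2 differences of the libraries labelled shH2afy from shScr.

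The cofactors and silencers of Hox genes had calls in both directions, at shares below the 43.7% and 41.3% of all genes. Of 9 TALE cofactors, 1 was higher (Meis1, 0.74) and 2 were lower (among them Pbx4, -0.41) in untrained mice, and only Pbx4 passed, as lower, in trained mice. Of 12 PRC2 genes 2 were higher (Eed and Ezh2) and 2 lower (Rbbp7 and Mtf2) in untrained mice, and 3 were lower in trained mice (Mtf2, Rbbp7 and Phf1). Of 11 PRC1 genes tested, 2 were lower (Bmi1 and Cbx7) in untrained and 1 (Cbx7) in trained mice. The medians of these lists stayed between -0.14 and 0.10, against 0.00 and -0.01 over all genes. Of 9 flanking genes, the neighbours Skap2 of HoxA (1.48 untrained, 1.40 trained) and Skap1 of HoxB (1.07 and 1.48) were higher. Both encode adaptor proteins of immune cells. The other 3 called were lower in each state.

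In the depletion experiment a call needed a 2-fold change with an adjusted p under 0.01, and 11.7% of all genes passed for shH2afy against shScr. With shH2afy against shScr, edgeR called 1 of 12 activators and 3 of 5 retinoic acid genes, among them Crabp2 (log2 2.47) and Aldh1a1 (1.04), all higher. It called Meis2, a TALE cofactor, as lower (-1.44), Ezh2, the PRC2 methyltransferase, as higher (1.32) and Epop, a PRC2 accessory subunit, as lower (-2.07). Skap2 was higher (1.38), and 0 of 12 PRC1 genes were called. The 0 calls for shH2afy2 against shScr hold for all of these lists.

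No Hox gene that could be tested passed between trained and untrained mice. In the libraries labelled shH2afy the trained minus untrained difference was 0.07 ± 0.33 on the log2 scale for Hoxb3 and 0.22 ± 0.37 for Hoxb4 (edgeR adjusted p = 0.998 each). 0 members could be tested within shScr. edgeR called 0% of genes in either comparison, with 613 genes at an unadjusted p under 0.05 and 44 by DESeq2 in libraries labelled shH2afy, and 1382 and 211 in shScr libraries. In intact mice, Egr2 was the 1 called activator, higher after training by 3.40 on the log2 scale (edgeR adjusted p = 5.83e-04), beside Hox genes that were not testable.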

How the data were processed

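Bulk CA1 tissue was profiled by ChIP-seq for mH2A1 and mH2A2 with matched inputs and by RNA-seq. The authors trimmed the reads with Trim Galore, aligned ChIP reads to mm10 with Bowtie2, and called broad domains per library against input with epic2 at an FDR under 0.05 (the submitters' processing notes name SICER). The deposited domain files give a start and end, a count of ChIP and of input reads, a p-value, an FDR, a score and a log2 fold of ChIP over input for each domain. The authors aligned RNA reads with STAR and deposited raw counts per gene from featureCounts. Libraries of the training experiment were depleted of ribosomal RNA, and reads were counted over whole transcripts. The strand setting is not given in the sources used here.

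Samples were grouped by the labels. Counts were tested with edgeR 4.0.16 (quasi-likelihood, TMM, filterByExpr with a minimum count of 10 and a total of 15) under R 4.3.3, with Benjamini-Hochberg adjustment over all genes and the study's thresholds: adjusted p under 0.01 with a fold above 2 in the depletion experiment, under 0.05 with a fold above 1.2 in the training experiment, and under 0.01 in intact mice. Domains were laid on 200-bp bins, and the percent of each of 23721 windows covered was tested with limma 3.58.1 (eBayes with a trend), beside the exact two-sided permutation p of each Hox window. Where all libraries of a group were at 0, the group was set to a floor of 3 counts in total before the fold was taken. Counting intervals cover counting error only, and a fold against the floor leaves out the counting error of the other group. Alternatives were DESeq2 1.42.0, RLE scaling, no filter, a domain FDR under 0.001, 50-kb windows, coverage minus the library mean, a replicate block and leaving out each replicate. Simulated data were used to test some of the edgeR and limma fits.

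The rule for the members uses names and positions only, but the members and gene lists were chosen with earlier results of these data known. Members could be named freely, and list genes by passing the threshold, at most 4 per list by adjusted p. Replicates are separate mice. Replicate numbers pair mH2A1 with mH2A2 at 30 min, since the labels give the same mice. In the other comparisons the labels do not tie equal numbers to one mouse, and the main fits used no pairs. Same-numbered trained and untrained shScr libraries correlated in their deviations from the group means at 0.169, 0.169 and 0.229. For shH2afy against shScr in the depletion experiment these values were -0.128, -0.290 and -0.139. Inputs were not used beyond the authors' calling. Some list genes that passed are counted but not reported by name here.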

Additional observations from a re-analysis of the deposited data

Results flagged for a closer look

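HoxC was picked out because mH2A1 coverage moved in opposite directions after training in 2 cohorts. At 30 min every trained library was below every untrained library, with a difference of -11.0 percentage points (61.9 and 73.0% in trained mice, 74.6, 81.4 and 79.4% in untrained mice). At 1 h every trained library was above every untrained library, with a difference of 13.0 points (97.6 and 98.7% in trained mice, 95.4 and 74.9% in untrained mice). Without untrained replicate 2 the 1 h difference was 2.80 points. The difference between the times was not tested. It was found among 24 pairs of differences compared. No Hox value stood out in 8 checks for a library far from the others, where chance picks out about 1 in 20. These were the checks of each window in the trained and the untrained mH2A1 groups of 6 h, the only groups with 5 libraries. The checks share libraries. The 1 h groups, which hold the libraries that stood apart above, were too small to be checked.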

How the results depend on the processing

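Of the results that answer a comparison, 128 of 130 values with 1 replicate left out and 72 of 80 under other settings kept their side of the threshold or their level. Part of these values could hardly move, so the tally is no measure of stability. Counting bins with any base in a domain gave the same values by construction. In the depletion, intact and shScr training comparisons no member passed the filter, so most fits had no member to call. Without the filter on low counts, 1 member (Hoxb4) was called for shH2afy against shH2afy2, where no member was tested otherwise, and leaving out single replicates there gave 0 to 1 (1 without shH2afy replicate 3). For the libraries labelled shH2afy against shScr, DESeq2 called 6 members and edgeR without the filter 7 in untrained mice, and edgeR without the filter 5 in trained mice, against 2 each. With the library mean subtracted, 1 window, HoxD, was called for mH2A1 against mH2A2 at 1 h (52.0 points, limma adjusted p = 0.0147, against 59.5 and 0.0821 without subtraction). For mH2A1 at 1 h, leaving out single replicates gave 0 to 1 called windows, with HoxD at 41.5 points (limma adjusted p = 0.0252) without untrained replicate 1, a fit in which the lone untrained library is assumed to vary like the others. Against 50-kb windows the mean percentile of the clusters was 95.9 for mH2A1 at 30 min and 96.1 at 6 h, against 97.0 and 97.6. With domains at an FDR under 0.001, mH2A2 coverage at 30 min was 44.4%, against 54.7%. The cause was not tested.

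Small training differences changed sign. HoxA for mH2A1 at 30 min was 3.97 points with the stricter FDR and 0.72 with the library mean subtracted, and -6.24 to 1.94 with single replicates left out. With the library mean subtracted HoxC for mH2A1 at 6 h was -0.078. With single replicates left out, HoxD at 30 min ran from -12.4 to 2.10, HoxB at 1 h from -0.28 to 16.4, and at 6 h HoxB from -0.67 to 0.19, HoxC from -0.18 to 0.46 and HoxD from -1.54 to 0.029. For mH2A2 at 1 h HoxB ran from -18.8 to 0.15 and HoxC from -24.8 to 0.40. None of these was called.

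With the replicate block, 0 members were called in every RNA comparison except the 2 of libraries labelled shH2afy against shScr, which kept 2 members each, and 0 Hox windows in every ChIP comparison, so it changed no member's call. Crossing the numbers of the mH2A1 libraries at 1 h, an alternative chosen after seeing the data, also gave 0 windows. Over all genes the block gave 1146 calls for shH2afy against shScr in the depletion experiment, against 1885. In intact mice DESeq2 gave 464 calls and edgeR without the filter 51, against 15. Counting a bin with any base in a domain gave the same values by construction, since domains are whole bins. Hox counts in intact and depletion libraries lie near the floor of 3 counts, so small differences there were not detectable at this depth.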
